A study of Mus musculus with 46 samples.

Results

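Microglia keep their identity through a small set of transcription factors, and 9 of these were followed here across every library of a study of microglial depletion and repopulation in the mouse brain. The genes were chosen by name, for their known roles in the microglial and myeloid lineages, and were Sall1, Sall3, Spi1, Mef2a, Mef2c, Runx1, Maf, Cebpa and Cebpb. They are 9 of the 21231 genes listed in the deposited tables, and each of them was found in each of the 3 tables. The study asked where the myeloid cells that refill the brain come from, and how closely they match the microglia they replace, after dosing mice with PLX3397. PLX3397 is an inhibitor of CSF1R, KIT and FLT3 given in chow, and microglia depend on CSF1R signalling to survive.

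The animals were C57BL/6 mice, male per the study's methods, and no transgene or deletion was carried by any group used here. In the first table, RNA came from whole microdissected tissue of the subventricular zone (SVZ), the neurogenic lining of the lateral ventricle. It held 5 libraries each from vehicle controls, from mice after 14 day PLX3397, and from mice after 14 day PLX3397 followed by 5 day recovery. In the second table, RNA came from CD11b+CD45int myeloid cells sorted from brain hemispheres at 0 hr, 6 hr or 24 hr after a peripheral injection of lipopolysaccharide (LPS), a bacterial cell wall component that triggers inflammation. Control microglia had 3, 5 and 4 libraries at 0 hr, 6 hr and 24 hr, and cells called white matter (WM) repopulating, taken after 14 day PLX3397 and 28 day recovery, had 4 libraries at each time. In the third table, the same sort gave 4 control libraries and 3 libraries of GLOBAL repopulation, that is 7 day PLX3397 followed by 28 day recovery. The sort takes any cell in the gate, so a repopulating library holds whatever CD11b+CD45int cells the brain contained, whatever their origin, and the 0 hr groups are the animals without LPS.

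Transcription factors of the microglial lineage work at different levels. Spi1 encodes PU.1, the pioneer factor that opens myeloid enhancers and drives Csf1r, and Runx1 and Cebpa act with it in the specification of myeloid cells. Mef2a, Mef2c, Maf and Sall1 belong to the later programme of the mature microglial state, with Sall1 the factor that most sets microglia apart from other macrophages, and Sall3 is its close relative. Cebpb is induced by inflammatory signals and activates cytokine and acute phase genes. None of the 9 is made by microglia alone in the brain: Mef2a and Mef2c are abundant in neurons, Sall1 and Sall3 are used by neural progenitors, and Maf is found in some neurons.

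Values are FPKM (fragments per kilobase of transcript, scaled to library size), a unit per transcript length, so that levels of different genes can be compared within a table. The tables were normalized separately, and levels are not set across them by any test. Recovered depth was 4.57 to 10.53 M reads per library in the SVZ, 4.949 to 11.02 M reads in the LPS table and 2.06 to 5.423 M reads in the GLOBAL table. All 10 microglial markers were detected at 1 FPKM or more in every sorted library. In the SVZ their summed level was 383 to 547 FPKM in controls, 11.5 to 15.1 FPKM after 14 day PLX3397 and 26.3 to 44.3 FPKM after 5 day recovery. Sorted libraries also held transcripts of other cells, with summed neutrophil markers (9 genes) between 435.5 and 15337.5 FPKM in the LPS table. Control microglia 6 hr replicate 2 and 24 hr replicate 4, SVZ control replicate 1, SVZ 5 day recovery replicates 4 and 5 and GLOBAL control replicate 4 stood apart from the other libraries of their tables, and results that rest on them are given with and without them. A gene was called changed when the adjusted p of limma's moderated test over all genes was under 0.05, and a difference is the change of log2(FPKM + 1) with its standard error (SE). The study's methods count n in mice per group, so these p-values refer to the spread between animals, although the labels do not tie each library to an animal.

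In resting control microglia (0 hr), Spi1 was by far the most abundant of the 9 factors. Its 3 libraries gave 561, 601 and 636 FPKM, against 141, 147 and 162 FPKM for Mef2a, the next in order. Mef2c (mean 97.9 FPKM), Sall1 (88.2 FPKM) and Cebpb (81.2 FPKM) followed, and their ranges overlapped. Cebpa (53.6 FPKM) and Maf (52.2 FPKM) could not be ordered against each other, and neither could Runx1 (26.9 FPKM) and Sall3 (24.1 FPKM), the lowest pair. In control SVZ tissue the order was another one, led by Mef2a (mean 46.4 FPKM) and Mef2c (22.8 FPKM), with Cebpb (6.06 FPKM) and Spi1 (5.95 FPKM) behind them and Runx1 (0.186 FPKM) last. In the GLOBAL control libraries the ranges of Spi1, Cebpa, Sall1, Cebpb and Mef2a, each set beside the next, overlapped.

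In SVZ tissue depleted of microglia nearly all of the Spi1 signal was gone, while the MEF2 transcripts read near their control levels. Control SVZ gave 5.02, 5.69, 6.07, 6.26 and 6.72 FPKM of Spi1 (chr2:91082374-91115759 in GRCm38.p6). After 14 day PLX3397 the 5 libraries gave 0, 0, 0.0835, 0.146 and 0.157 FPKM, resting on 5 reads in all. After 5 day recovery they gave 0.475, 0.836, 0.853, 0.911 and 1.21 FPKM, on 46 reads in all. The groups followed each other without overlap, with Spi1 at 1.3% ± 1.27 (SD, n = 5) of the control mean under the inhibitor and 14.4% ± 4.37 (SD, n = 5) after recovery. Spi1 fell by 2.69 on the log2 scale after 14 day PLX3397 (SE 0.11, adjusted p = 2.19e-11, limma) and was still lower than control after recovery (log2 difference -1.91, SE 0.11, adjusted p = 3.57e-09). It rose between the inhibitor and the recovery group by 0.78 (SE 0.11, adjusted p = 0.00238). Without the 3 SVZ libraries that stood apart these differences were -2.74, -1.86 and 0.88, and each was called. Of the treated libraries only the recovery library at 1.21 FPKM reached 1 FPKM, so Spi1 passed the expression limit through the controls. With only the inhibitor and recovery groups in the fit, Spi1 was under the limit and not tested. On this scale the pseudocount of 1 FPKM understates the change of a gene this low. In bulk tissue, fewer cells of a type and less RNA per cell cannot be told apart.

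**Figure D1:**
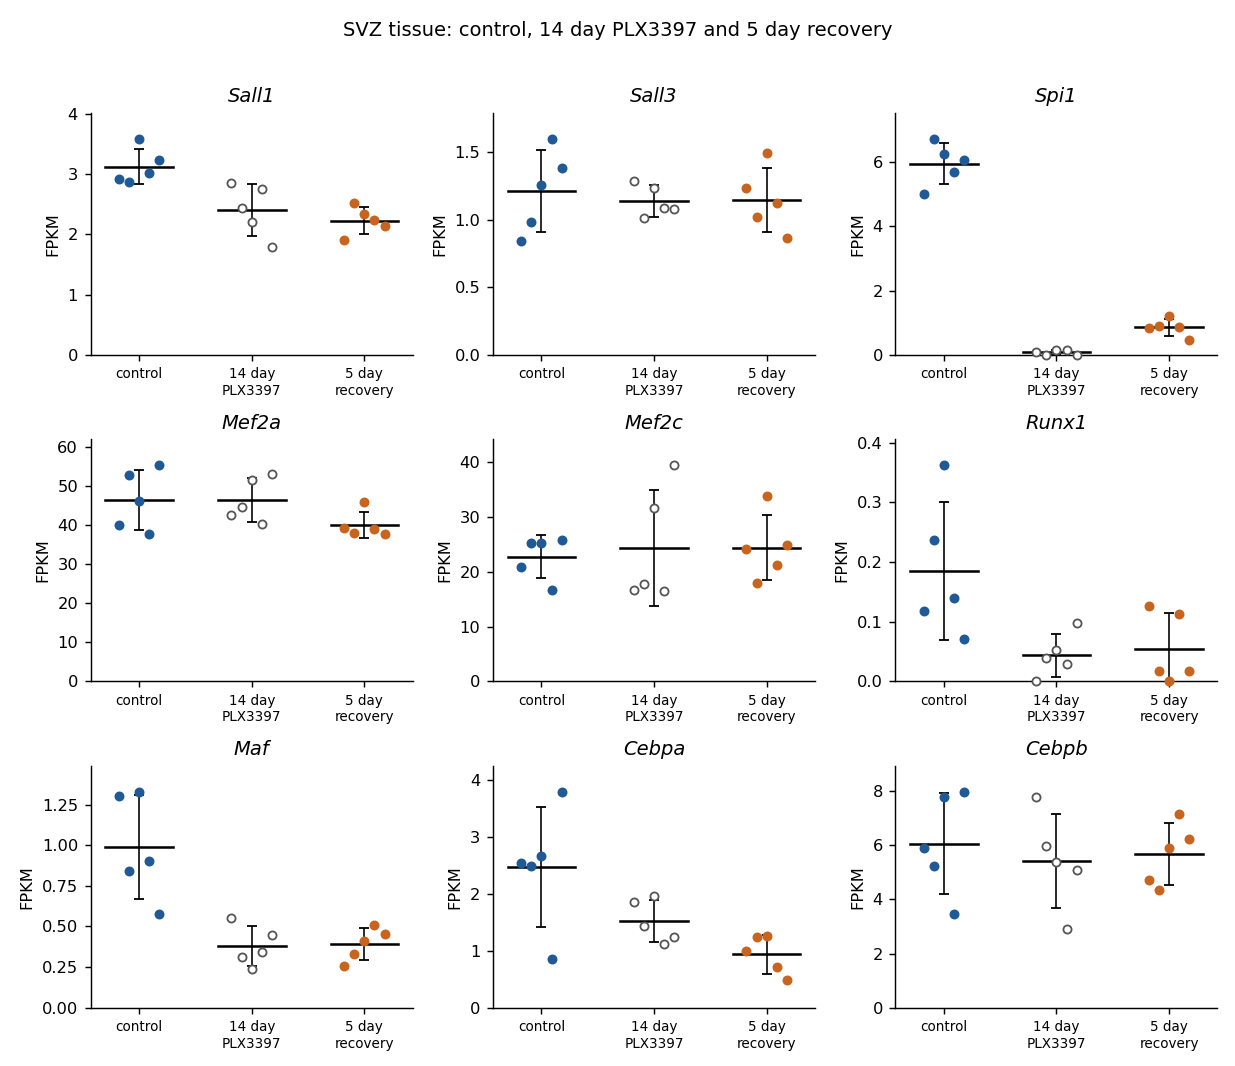
Levels of the 9 factors in SVZ tissue, with 1 point per library in FPKM (y axis, a separate linear scale for each gene) for controls, the 14 day PLX3397 group and the 5 day recovery group (5 libraries each), and bars for the group mean and SD. Spi1 drops to between 0 and 0.157 FPKM under PLX3397 and partly returns, while Mef2a stays between 37.6 and 55.3 FPKM.

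Spi1 was the only one of the 7 members tested that was called in each of the SVZ comparisons. For 14 day PLX3397 against control, 1.26% of all 14151 genes tested were called (0.0565% higher and 1.21% lower). For 5 day recovery against control it was 1.27% (0.184% higher and 1.09% lower), and for 5 day recovery against 14 day PLX3397 it was 0.325% (0.29% higher and 0.0353% lower). The median difference over the 7 tested members was -0.14 and -0.20 against control, beside 0.0062 and -0.0056 over all genes. Runx1 and Maf stayed under the limit for testing, which was 1 FPKM in at least 3 libraries.

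Sall1, Maf and Runx1 read lower in the depleted tissue than in controls, to a lesser degree than Spi1 and without passing the test or, for Maf and Runx1, without being tested. Sall1 (chr8:89027242-89044162) was 2.87, 2.91, 3.02, 3.24 and 3.58 FPKM in controls, 1.80, 2.2, 2.44, 2.75 and 2.86 FPKM after 14 day PLX3397, and 1.91, 2.15, 2.24, 2.34 and 2.52 FPKM after 5 day recovery. Every treated library lay under the lowest control, at 77.0% ± 13.7 and 71.3% ± 7.23 (SD, n = 5 each) of the control mean. The differences of -0.28 (SE 0.10, adjusted p = 0.446) and -0.35 (SE 0.10, adjusted p = 0.117) did not pass limma's threshold. Maf (chr8:115703253-115706894) was 0.577, 0.840, 0.90, 1.3 and 1.33 FPKM in controls and 0.240, 0.311, 0.345, 0.449 and 0.550 FPKM under PLX3397, with 0.255 to 0.511 FPKM after recovery. These Maf values rest on 5 to 29 reads per library and stood at 38.3% ± 12.3 and 39.6% ± 10.1 (SD, n = 5 each) of the control mean. Maf was called lower in both groups when genes of all levels were tested. Runx1 (chr16:92601466-92826074), with 0 to 16 reads per library, was 23.5% ± 19.5 and 29.3% ± 32.2 of the control mean. Its controls (0.0713 to 0.362 FPKM) overlapped both the PLX3397 group (0 to 0.0985 FPKM) and the recovery group (0 to 0.126 FPKM).

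Cebpa, which directs myeloid progenitors, had its lowest SVZ levels after recovery. Cebpa (chr7:35119293-35121928) gave 0.851, 2.49, 2.54, 2.66 and 3.79 FPKM in controls, 1.11 to 1.95 FPKM after 14 day PLX3397, and 0.481, 0.706, 0.987, 1.24 and 1.26 FPKM after 5 day recovery. The lowest control lay inside the range of the recovery group, and the other 4 controls were above every treated library. Against control the difference after recovery was -0.79 (SE 0.20, 95% confidence interval -1.23 to -0.36, adjusted p = 0.079, limma). Without SVZ control replicate 4, the library with 0.851 FPKM, it was -1.0 (adjusted p = 0.00119), without the pair of recovery libraries that stood apart it was -0.62 (adjusted p = 0.47), and without these and control replicate 1 it was -0.59 (adjusted p = 0.576). With the replicate number as a block its adjusted p was 0.0498.

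Cebpb, Sall3, Mef2a and Mef2c kept tissue levels close to control, and none passed the test. Cebpb (chr2:167688915-167690432) was 89.4% and 93.5% of the control mean after PLX3397 and after recovery, Sall3 (chr18:80966989-80987021) 94.1% and 94.6%, and Mef2c (chr13:83504017-83667079) 107% in both. Mef2a (chr7:67231163-67376456) was 100% of control under PLX3397 and 86.1% after recovery, where 4 of 5 libraries read 37.8 to 39.2 FPKM. The 95% intervals of the differences under PLX3397 ran from -0.23 to 0.24 for Mef2a, from -0.27 to 0.19 for Sall3, from -0.47 to 0.50 for Mef2c and from -0.59 to 0.31 for Cebpb. These intervals are not adjusted for the number of genes, and a p above the threshold does not show that levels were equal. Mef2c was spread widely under PLX3397, with 3 libraries at 16.4 to 17.7 FPKM and the others at 31.6 and 39.4 FPKM.

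**Figure D2:**
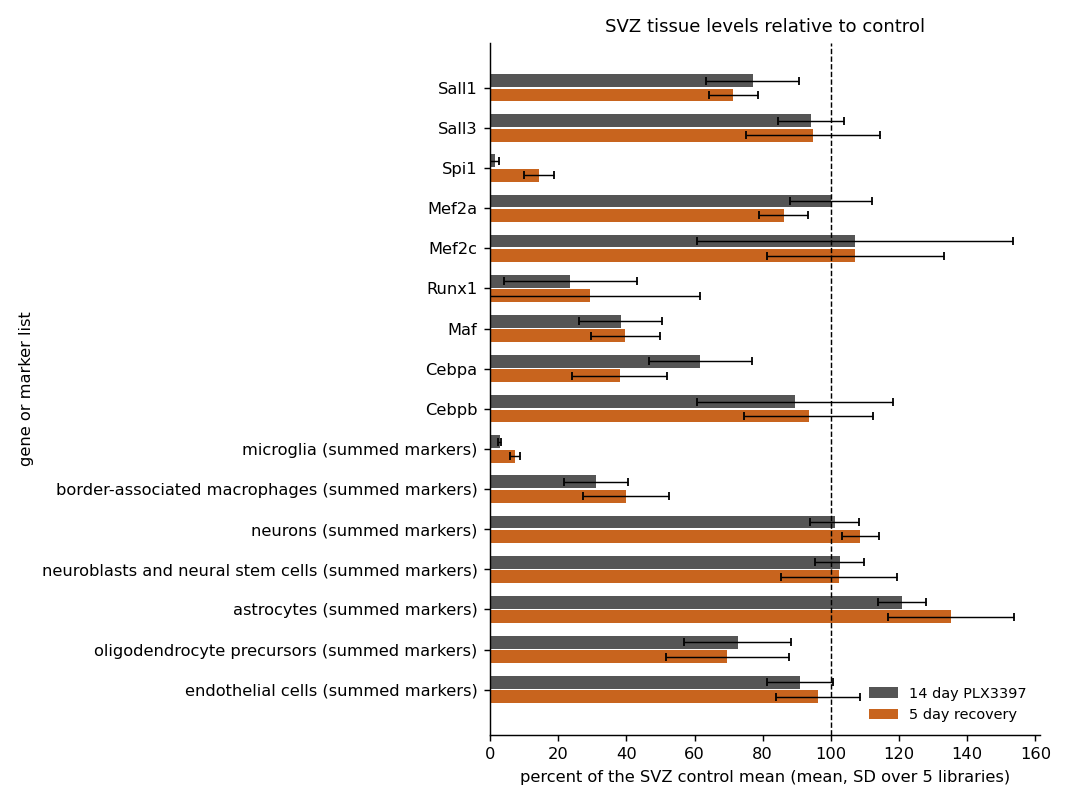
Level after 14 day PLX3397 and after 5 day recovery in percent of the SVZ control mean (x axis, linear) for the 9 factors and for the summed markers of several cell types, as group means with SD bars cut at 0 (n = 5 each). Spi1 (1.3% and 14.4%) lies near the summed microglial markers (2.77% and 7.34%). Mef2a, Mef2c, Sall3 and Cebpb lie between 86.1% and 107%, near the neuronal, neuroblast and endothelial sums.

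The summed microglial markers stood at 2.77% ± 0.336 of control under PLX3397 and 7.34% ± 1.39 after recovery (SD, n = 5 each). Spi1 was thus below the marker sum under the inhibitor and above it after recovery. The summed markers of border-associated macrophages, the resident macrophages of the meninges and perivascular spaces, were 31.0% and 39.8% of control. Neuronal markers summed to 101% and 109%, neuroblast and neural stem cell markers to 103% and 102%, and endothelial markers to 91.0% and 96.3%. Oligodendrocyte precursor markers summed to 72.7% and 69.6% and astrocyte markers to 121% and 135%. Monocyte markers, low in all groups, summed to 106% and 98.5%, and oligodendrocyte markers to 128% and 96.9%. One control library, replicate 1, had a summed choroid plexus level of 21671.8 FPKM, against 16.002 to 130.03 FPKM in all other SVZ libraries. Erythrocyte markers summed to 91.6% of control under PLX3397 and 331% after recovery, where every library lay above every library of the other groups. Neutrophil markers, low in all groups, summed to 86.9% and 468%, with overlap (0.558 to 3.17 FPKM in controls and 1.71 to 15.01 FPKM after recovery). The part of these other cells in the factors' values was not tested.

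Other myeloid regulators and microglial genes give the setting of these values. Of 40 further myeloid transcription factors, 32 were tested in the SVZ, and 4 fell and 0 rose both after PLX3397 and after recovery, each time Irf8, Irf5, Lyl1 and Hhex. Of all genes 1.21% and 1.09% were called lower in these comparisons with control. Irf8, which cooperates with PU.1 in microglial development, fell by 1.53 on the log2 scale under the inhibitor (SE 0.15, adjusted p = 3.57e-06) and fell by 1.26 relative to control after recovery (SE 0.15, adjusted p = 4.65e-05). Homeostatic microglial genes fell together, with 13 of 14 lower in both treated groups and median differences of -2.99 and -2.66. Sparc, also made by vessels and astrocytes, was the exception in both. After recovery 5 of these 14 were higher than under the inhibitor, beside 0.29% of all genes.

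At rest, Cebpb was the one factor among the 9 called between WM repopulating cells and control microglia. Control microglia (0 hr) gave 65.9, 67.3 and 110.4 FPKM of Cebpb, and WM repopulating cells gave 252, 266, 288 and 302 FPKM. All 4 WM libraries lay above all 3 control libraries. The difference was 1.80 (SE 0.32, 95% confidence interval 1.13 to 2.46, adjusted p = 0.00459, limma), a fold of 3.47. Cebpb was 1 of 9 members called, against a background of 1.21% of all 12684 genes tested (0.717% higher and 0.497% lower). It was called under each of 32 alternatives, with differences of 1.67 to 2.04. The median difference of the 9 members was -0.07, beside 0.0115 over all genes. Summed neutrophil markers overlapped between these groups (1836.9 to 8941.7 FPKM in control microglia and 2902.5 to 10913.6 FPKM in WM repopulating cells), as did summed monocyte markers (109.96 to 406.1 and 151.7 to 482.7 FPKM). The summed choroid plexus markers were higher in WM repopulating cells without overlap (283 to 741 FPKM, against 76.7 to 222 FPKM in control microglia), a ratio of means of 3.59. The astrocyte (ratio 0.737) and endothelial (0.468) sums were lower without overlap. The part of these cells in Cebpb was not tested.

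Because Cebpb rose and its relative Cebpa fell at 6 hr after LPS in both kinds of cell, the 250 bases before the start of each gene are shown from RefSeq (GRCm38.p6, plus strand). Capitals mark TGACG, or CGTCA on the other strand, the core of the site bound by CREB and ATF factors. The Cebpb window is chr2:167688665-167688914 (81.6% G and C) and the Cebpa window is chr7:35119043-35119292 (66.4% G and C).
Cebpb: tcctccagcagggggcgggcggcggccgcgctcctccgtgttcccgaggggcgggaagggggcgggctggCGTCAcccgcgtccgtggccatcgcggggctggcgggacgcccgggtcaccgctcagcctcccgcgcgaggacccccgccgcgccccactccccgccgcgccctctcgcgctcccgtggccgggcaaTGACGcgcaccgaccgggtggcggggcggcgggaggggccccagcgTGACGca
Cebpa: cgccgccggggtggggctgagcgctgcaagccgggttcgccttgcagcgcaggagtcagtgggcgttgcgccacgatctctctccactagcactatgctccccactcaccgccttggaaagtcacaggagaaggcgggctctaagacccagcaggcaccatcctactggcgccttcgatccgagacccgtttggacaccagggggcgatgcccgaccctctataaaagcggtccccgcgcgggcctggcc
The Cebpb window held TGACG at 180 to 176, 53 to 49 and 7 to 3 bases before the start, and the Cebpa window held none. Among the other factors with windows in RefSeq, TGACG was in 1 of 3 windows of Sall1, which fell after LPS, and in none of those of Runx1 (2 windows), which rose, Mef2a (1) or Mef2c (3). TGACG occurred on either strand in 17.8% of 32851 promoter windows of this length. The C/EBP motif TTGCNNAA, found in 9.56% of windows, was in neither, and the letters TATAAA, found in 12.4%, were in the Cebpa window and not in that of Cebpb. These are matches of letters and were not tested for binding.

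The other 8 factors did not pass the test at rest. Maf was closest, at 47.8, 50.7 and 58.1 FPKM in control microglia and 32.5, 32.6, 33.1 and 37.3 FPKM in WM repopulating cells, with no overlap. Its difference was -0.61 (SE 0.17, 95% confidence interval -0.97 to -0.25, adjusted p = 0.103), and it was called in 3 of 32 alternatives, among them without the libraries that stood apart (adjusted p = 0.0435) and without control microglia 6 hr replicate 3 (adjusted p = 0.0333). Cebpa was 45.1, 53.6 and 62.1 FPKM against 71.4, 71.9, 81.7 and 87.6 FPKM, again with no overlap, and differed by 0.54 (95% confidence interval 0.05 to 1.04, adjusted p = 0.352). Sall1 was 85.8, 86.2 and 92.7 FPKM in control microglia and 73.4, 73.7, 77.9 and 81.7 FPKM in WM repopulating cells, a difference of -0.20 (95% confidence interval -0.56 to 0.16). Spi1, at 557, 589, 592 and 644 FPKM in WM repopulating cells, overlapped the controls, with libraries below and above their range (difference -0.01, 95% confidence interval -0.48 to 0.46). Intervals for Mef2a (-0.35 to 0.21), Mef2c (-0.61 to 0.29), Runx1 (-0.46 to 0.29) and Sall3 (-0.31 to 0.55) all held 0. Sall1, Mef2c and Runx1 were lower in WM repopulating cells without overlap. Mef2c was 86.7 to 88.2 FPKM against 90.2 to 102 FPKM in control microglia, and Runx1 24.5 to 25.8 against 26.0 to 28.7 FPKM. Mef2a, Sall3 and Spi1 overlapped. The share of all genes without overlap was not counted.

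GLOBAL repopulation, in which surviving microglia refill the brain after the shorter treatment, showed no called member. Cebpb was 106, 117, 167 and 289 FPKM in the controls and 147, 169 and 176 FPKM in GLOBAL cells, which lay inside the control range. Its difference was 0.06 (95% confidence interval -0.58 to 0.70, adjusted p = 0.963, limma). Sall1 was 163, 173, 174 and 220.1 FPKM against 179, 201 and 202 FPKM, and Spi1 was 279, 309.8, 357 and 554 FPKM against 323, 346 and 348 FPKM. Both overlapped between the groups. Cebpa was 126, 148, 186 and 305 FPKM in controls and 251, 274 and 285 FPKM in GLOBAL cells, a difference of 0.58 (SE 0.25, adjusted p = 0.544). Without GLOBAL control replicate 4, which holds the highest values of Cebpa, Cebpb and Spi1 among the controls, Cebpa differed by 0.83 (adjusted p = 0.133). Sall3 was 17.1, 21.2, 21.4 and 28.6 FPKM against 24.9, 27.6 and 29.1 FPKM (difference 0.31, adjusted p = 0.62), and Mef2a was 91.1, 91.1, 102 and 112 FPKM against 91.5, 109 and 124 FPKM. Mef2c read 52.6 to 54.3 FPKM in controls and 54.7, 59.0 and 59.3 FPKM in GLOBAL cells, without overlap. How many of all genes showed no overlap was not counted. The Mef2c difference of 0.11 (95% confidence interval -0.15 to 0.36, adjusted p = 0.801, limma) did not pass. Runx1 (22.6 to 30.5 and 25.7 to 26.7 FPKM) and Maf (21.5 to 23.8 and 17.5 to 27.5 FPKM) overlapped. In that experiment 0 of 16651 genes were called by limma (0% either way), 1504 of them with an unadjusted p under 0.05, and 1 of the 9 members had such a p. With the replicate number as a block 55 genes were called, and 0 of the 9 members were among them. Summed neutrophil markers ran from 2159.9 to 23182 FPKM in the controls and from 1284.6 to 4668.2 FPKM in GLOBAL cells.

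**Figure D3:**
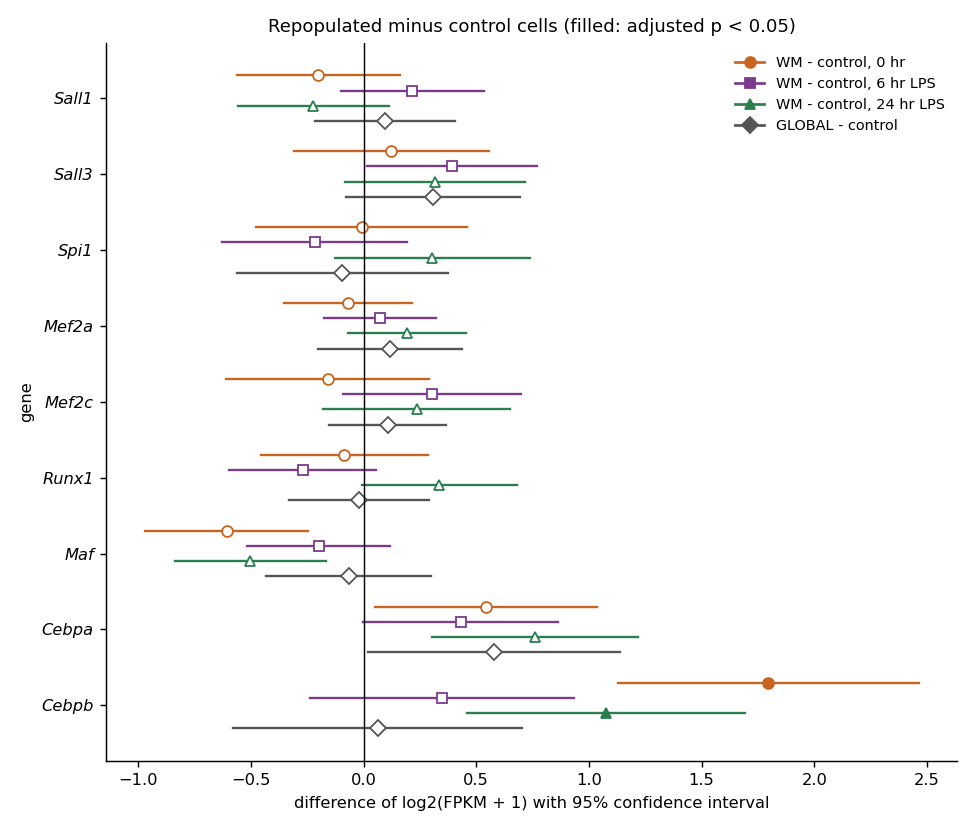
Difference of log2(FPKM + 1), repopulated minus control (x axis), for the 9 factors in WM repopulating cells at 0 hr, 6 hr and 24 hr and in GLOBAL cells, as estimates with 95% confidence intervals; filled symbols have an adjusted p under 0.05. Cebpb in WM repopulating cells at 0 hr (1.80) and 24 hr (1.08) carries the filled symbols.

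Most of the 9 factors changed by 6 hr after LPS in both kinds of cell, with Cebpb and Runx1 higher and the mature microglial factors lower. In control microglia 8 of 9 members were called at 6 hr, 2 higher and 6 lower, where 42.5% of all genes were called (21.4% higher and 21.1% lower). In WM repopulating cells 7 of 9 were called at 6 hr, 2 higher and 5 lower, where the share of all genes was 38.8% (19.3% higher and 19.5% lower). At 24 hr the counts were 6 of 9 in control microglia (1 higher, 5 lower) against 21.3% of all genes (12.1% higher and 9.23% lower). In WM repopulating cells they were 5 of 9 (1 higher, 4 lower) against 18.8% (10.5% higher and 8.29% lower). Median differences of the members at 6 hr were -0.71 in control microglia and -0.48 in WM repopulating cells, beside 0.0117 and -0.0047 over all genes. At 24 hr they were -0.74 and -0.39, beside 0.0131 and 0.0167. Responses of a kind of cell at 6 hr and 24 hr share their 0 hr libraries.

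**Figure D4:**
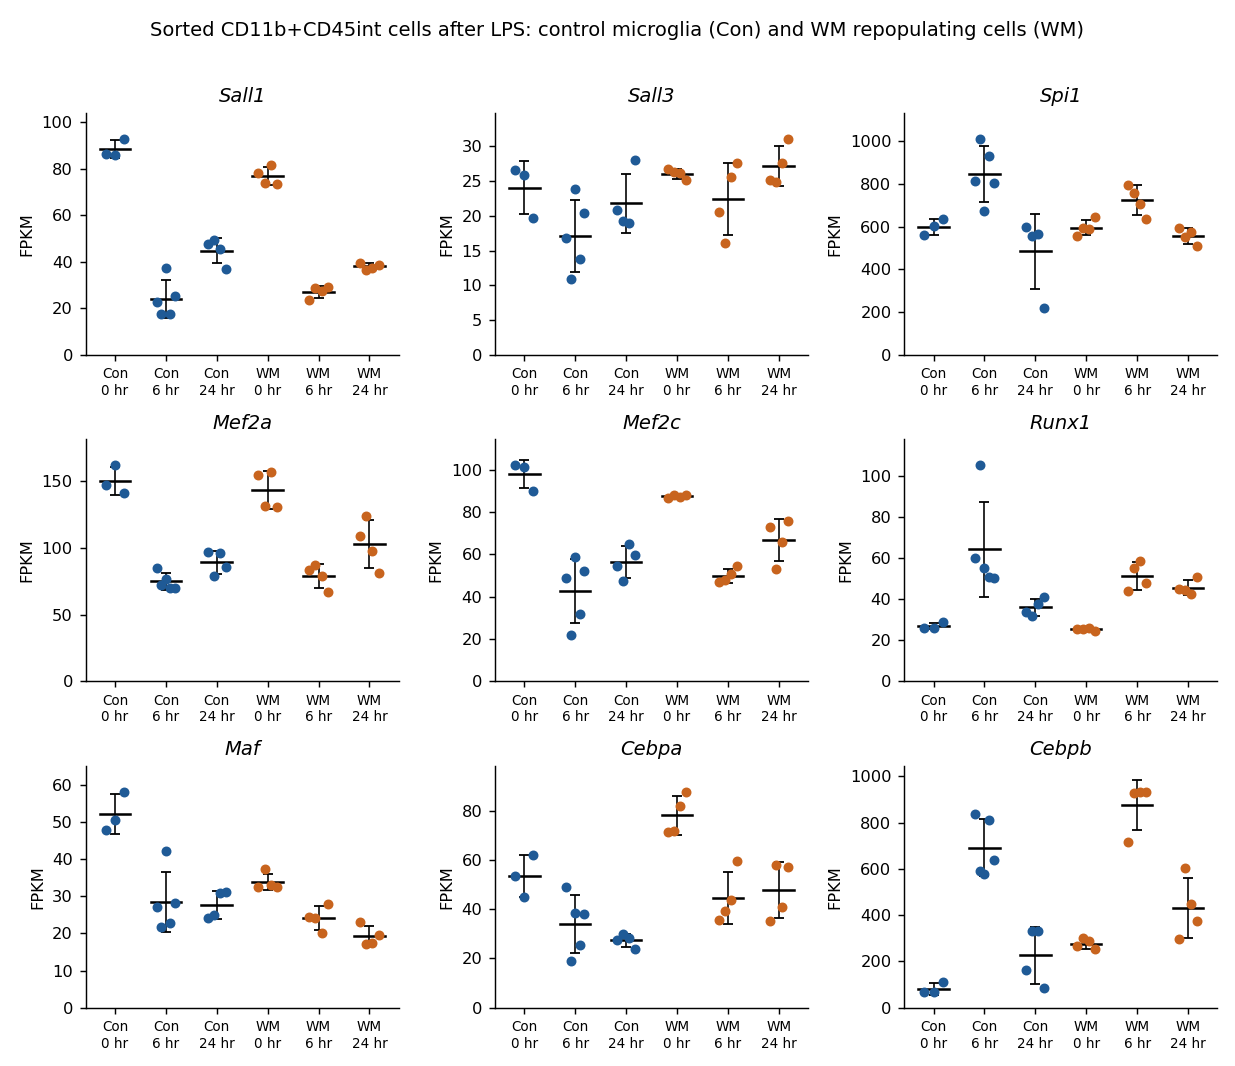
Levels of the 9 factors in sorted cells, with 1 point per library in FPKM (y axis, a separate linear scale for each gene) at 0 hr, 6 hr and 24 hr after LPS for control microglia (3, 5 and 4 libraries) and WM repopulating cells (4 each), and bars for the mean and SD. Sall1 drops from between 85.8 and 92.7 FPKM to between 17.4 and 37.3 FPKM in control microglia at 6 hr, and Cebpb rises from between 65.9 and 110.4 FPKM to between 579 and 837 FPKM.

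Sall1, the factor most particular to microglia among brain macrophages, had the largest reduction of the 9 at 6 hr in both kinds of cell. Control microglia went from 85.8 to 92.7 FPKM at 0 hr to 17.4, 17.7, 22.8, 25.3 and 37.3 FPKM at 6 hr and 36.8, 45.4, 47.8 and 49.1 FPKM at 24 hr. WM repopulating cells went from 73.4 to 81.7 FPKM to 23.4, 27.6, 28.5 and 29.2 FPKM and then to 36.5, 37.3, 38.7 and 39.4 FPKM. The 0 hr libraries lay above every LPS library in both. At 6 hr the ranges of the 2 kinds of cell overlapped, and at 24 hr 3 of the 4 controls lay above every WM library, while control replicate 4, which stood apart, lay among them at 36.8 FPKM. Sall1 fell by 1.88 at 6 hr in control microglia (SE 0.17, adjusted p = 4.98e-09, limma) and by 1.47 in WM repopulating cells (SE 0.16, adjusted p = 1.62e-07). At 24 hr it was still lower by -0.97 (adjusted p = 0.000314) and -0.99 (adjusted p = 0.000113).

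The long noncoding gene Gm3134 (chr8:89041243-89071019) overlaps Sall1, and whether the counting used strand is not given in the sources used here, so reads in the overlap cannot be assigned with certainty. Gm3134 read 32.0 to 43.3 FPKM in control microglia at 0 hr, 3.73 to 12.5 FPKM at 6 hr and 11.3 to 14.2 FPKM at 24 hr. The WM repopulating libraries read 25.6 to 39.3, 7.60 to 12.8 and 9.54 to 14.5 FPKM. Its groups were ordered like those of Sall1, with 0 hr above both LPS times.

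Sall3 responded less. It was 19.7, 25.8 and 26.7 FPKM in control microglia at 0 hr and 10.8, 13.8, 16.7, 20.4 and 23.9 FPKM at 6 hr, with overlap, and 18.98 to 28.1 FPKM at 24 hr. Its difference at 6 hr was -0.50 (SE 0.20, adjusted p = 0.0461), a call that was lost without the libraries that stood apart (-0.36, adjusted p = 0.0938). The call was made in 14 of 32 alternatives, and leaving out 1 library at a time lost it in 14 of 24 cases, with adjusted p up to 0.157 (without control microglia 0 hr replicate 1). WM repopulating cells gave 25.1 to 26.7, 16.1 to 27.6 and 24.8 to 31.1 FPKM, and neither time passed the test. All 6 groups overlapped with their neighbours in the order of means.

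Mef2a and Mef2c, MADS-box factors that act at enhancers of mature microglia, both fell. Mef2a was 141, 147 and 162 FPKM in control microglia at rest, 70.1, 70.2, 72.2, 76.6 and 85.2 FPKM at 6 hr, and 78.6, 85.8, 96.1 and 96.5 FPKM at 24 hr. The WM repopulating libraries read 130.4 to 157, 66.7 to 87.3 and 80.9 to 124 FPKM. The resting libraries were above all LPS libraries in each. The differences at 6 hr were -0.99 (SE 0.13, adjusted p = 1.69e-06) and -0.85 (SE 0.13, adjusted p = 1.08e-05), and those at 24 hr were -0.74 (adjusted p = 0.000386) and -0.48 (adjusted p = 0.00894).

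Mef2c, whose span overlaps the noncoding genes Gm52043 and Gm52044, went from 90.2, 101 and 102 FPKM to 22.02, 31.8, 48.7, 52.3 and 58.8 FPKM at 6 hr and 47.2, 54.6, 59.6 and 64.9 FPKM at 24 hr in control microglia. The WM repopulating libraries went from 86.7 to 88.2 FPKM to 46.9, 47.9, 50.8 and 54.3 FPKM, and then to 53.1, 66.0, 72.7 and 75.8 FPKM. Control microglia at 6 hr spread over a range that held all 4 WM libraries of that time. Mef2c fell by 1.26 (SE 0.21, adjusted p = 3.16e-05) in control microglia and by 0.80 (SE 0.20, adjusted p = 0.0029) in WM repopulating cells at 6 hr. At 24 hr the differences were -0.79 (adjusted p = 0.0111) and -0.39 (adjusted p = 0.185, or 0.0343 with only the compared groups in the fit).

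Maf, a basic leucine zipper factor that restrains self-renewal of macrophages, was lower after LPS at both times. Control microglia read 21.8, 22.9, 27.0, 28.3 and 42.1 FPKM at 6 hr and 24.1, 25.0, 30.8 and 31.3 FPKM at 24 hr, all under the 47.8 FPKM of the lowest resting library. WM repopulating cells read 20.1, 24.1, 24.3 and 28.0 FPKM and then 17.1, 17.4, 19.7 and 22.99 FPKM, all under their lowest resting library at 32.5 FPKM. Maf fell by 0.89 at both times in control microglia (adjusted p = 0.000152 and 0.000722). In WM repopulating cells it fell by 0.48 at 6 hr (adjusted p = 0.022) and by 0.79 at 24 hr (adjusted p = 0.00125). The 6 hr call in WM repopulating cells was lost without WM repopulating 0 hr replicate 2 (-0.43, adjusted p = 0.0629) or 6 hr replicate 3 (-0.40, adjusted p = 0.0817).

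The myeloid specification factors did not move together. Runx1, whose span overlaps the noncoding gene Gm30281, was 26.0, 26.2 and 28.7 FPKM in resting control microglia, 50.4, 51.1, 55.1, 60.1 and 105 FPKM at 6 hr and 31.7, 33.7, 37.8 and 41.3 FPKM at 24 hr. In WM repopulating cells it was 24.5 to 25.8 FPKM, 44.0, 47.8, 55.2 and 58.7 FPKM, and 42.4, 44.4, 45.1 and 51.0 FPKM. At 24 hr every WM library was above every control library, while at 6 hr the groups overlapped. Runx1 rose at 6 hr by 1.17 (SE 0.17, adjusted p = 7.19e-06) and 0.98 (SE 0.17, adjusted p = 5.05e-05), the first of these 0.98 without control microglia 6 hr replicate 2, the library at 105 FPKM. At 24 hr the difference was 0.40 (adjusted p = 0.115) in control microglia and 0.82 (SE 0.17, adjusted p = 0.00103) in WM repopulating cells, and the difference between these responses, 0.42 (SE 0.24, adjusted p = 0.657), did not pass. The control response at 24 hr was called in 2 of 32 alternatives, without control microglia 6 hr replicate 2 (0.40, adjusted p = 0.0161) and without the libraries that stood apart (0.34, adjusted p = 0.0409).

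Spi1 had the highest mean level of the 9 factors in 5 of the 6 groups, and in WM repopulating cells at 6 hr its mean of 724 FPKM was below that of Cebpb (876 FPKM). It read 672, 806, 813, 929.5 and 1010.1 FPKM in control microglia at 6 hr, each above the 636 FPKM of the highest resting library, and 634, 708, 758 and 796 FPKM in WM repopulating cells. The differences of 0.49 (SE 0.22, adjusted p = 0.0745) and 0.28 (adjusted p = 0.311) did not pass with all libraries, and did pass without the libraries that stood apart (0.42, adjusted p = 0.0032, and 0.28, adjusted p = 0.0279). They passed in 4 and 2 of 32 alternatives. At 24 hr control microglia gave 218, 554, 565 and 597 FPKM and WM repopulating cells 507, 553, 575 and 591 FPKM. The value of 218 FPKM is that of control microglia 24 hr replicate 4, and without it the difference from 0 hr moved from -0.41 to -0.07.

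Cebpa fell, in the direction opposite to Cebpb. It went from 45.1, 53.6 and 62.1 FPKM to 18.8, 25.5, 37.9, 38.6 and 49.0 FPKM at 6 hr and 23.9, 27.5, 28.2 and 29.8 FPKM at 24 hr in control microglia. In WM repopulating cells it went from 71.4 to 87.6 FPKM to 35.4, 39.3, 43.9 and 59.8 FPKM and then to 35.3, 41.0, 57.0 and 58.0 FPKM. At 24 hr all WM libraries were above all control libraries, as at 0 hr. The differences were -0.71 (SE 0.23, adjusted p = 0.0153) at 6 hr and -0.94 (SE 0.24, adjusted p = 0.00645) at 24 hr in control microglia, and -0.82 (SE 0.22, adjusted p = 0.00499) and -0.72 (SE 0.22, adjusted p = 0.0237) in WM repopulating cells. The first was lost without control microglia 0 hr replicate 3 (-0.59, adjusted p = 0.0808) and with only the compared groups in the fit (adjusted p = 0.0683). The last was lost without WM repopulating 0 hr replicate 3 (-0.70, adjusted p = 0.0555) or 4 (-0.67, adjusted p = 0.0664), or 24 hr replicate 1 (-0.59, adjusted p = 0.0894) or 3 (-0.66, adjusted p = 0.0714).

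Cebpb had the largest LPS response of the 9 at 6 hr. Control microglia went from 65.9, 67.3 and 110.4 FPKM to 579, 589.8, 639, 813 and 837 FPKM, a difference of 3.10 (SE 0.31, adjusted p = 2.79e-08) and a fold of 8.57. WM repopulating cells went from 252 to 302 FPKM to 714, 926, 932 and 933 FPKM, a difference of 1.65 (SE 0.30, adjusted p = 0.00011) and a fold of 3.14. At 6 hr the ranges of the 2 kinds of cell overlapped. WM repopulating 6 hr replicate 1, the library at 714 FPKM, also had a summed neutrophil level of 10258.6 FPKM against 435.5 FPKM in the lowest of its group, and without it the WM difference was 1.75.

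At 24 hr Cebpb read 84.8, 164, 330.3 and 331 FPKM in control microglia and 299, 376, 447 and 605 FPKM in WM repopulating cells, below every 6 hr library of the same kind of cell. Against 0 hr this was 1.32 (SE 0.32, adjusted p = 0.0049) in control microglia and 0.59 (SE 0.30, adjusted p = 0.177) in WM repopulating cells. Without control microglia 24 hr replicate 4, the library at 84.8 FPKM, the first of these was 1.72 (adjusted p = 5.28e-05). With only the compared groups in the fit, the first missed the threshold (adjusted p = 0.0674) and the second passed it (adjusted p = 0.0309). Summed monocyte markers ran from 2288 to 3768.6 FPKM in control microglia and from 1906.4 to 4730 FPKM in WM repopulating cells at 6 hr, above 0 hr (at most 482.7 FPKM) and 24 hr (at most 821 FPKM). Summed microglial markers were 40065.7 to 46455.8 FPKM at 0 hr and 24474.1 to 27236.6 FPKM at 6 hr in control microglia, and 42340.7 to 50674.4 and 27551.5 to 32904.3 FPKM in WM repopulating cells. The choroid plexus sum was lower at 24 hr than at 0 hr without overlap (ratio of means 0.342 in control microglia and 0.0559 in WM repopulating cells). In control microglia the astrocyte (0.653) and oligodendrocyte (0.690) sums were also lower at 24 hr without overlap. In WM repopulating cells both of these overlapped (1.0 and 0.767). The part of these cells in the LPS responses was not tested.

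**Figure D5:**
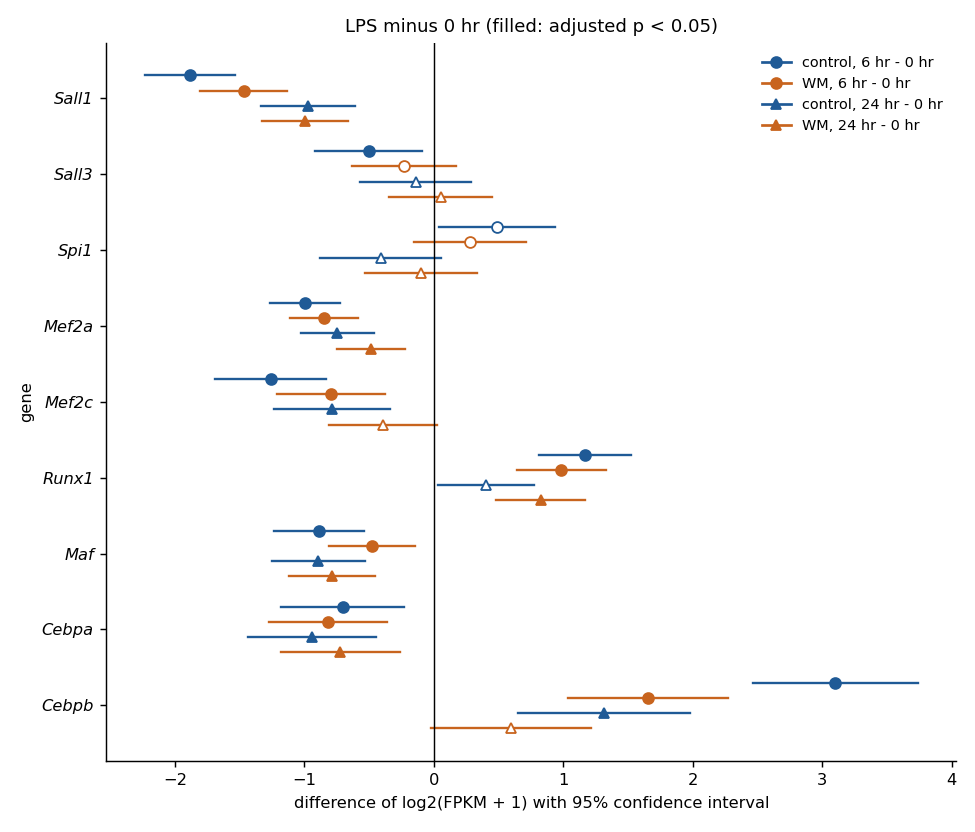
Response to LPS as a difference of log2(FPKM + 1) from 0 hr at 6 hr and 24 hr for the 9 factors, in control microglia and in WM repopulating cells, with 95% confidence intervals. Cebpb rises by 3.10 and 1.65 at 6 hr, and Sall1 drops, with differences of -1.88 and -1.47.

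The responses of control microglia and WM repopulating cells were compared by the interaction term. At 6 hr the Cebpb response was smaller in WM repopulating cells by -1.45 on the log2 scale (SE 0.43, 95% confidence interval -2.33 to -0.56), with an unadjusted p of 0.00259 and an adjusted p of 0.467 by limma, and the call was made in 0 of 32 alternatives. Of the 9 members 0 were called at 6 hr, 1 of them with an unadjusted p under 0.05, against 0.0237% of all genes (0.0237% higher and 0% lower). At 24 hr 0 were called and 0 had such a p, against 0.0867% of all genes (0.0158% higher and 0.071% lower). The Cebpb term at 24 hr was -0.72 (95% confidence interval -1.63 to 0.19). With 1 library left out at a time it ran from -1.12 (without control microglia 24 hr replicate 4, adjusted p = 0.191, limma) to -0.47. For Sall1 the term was 0.42 at 6 hr (95% confidence interval -0.06 to 0.90) and -0.02 at 24 hr (-0.52 to 0.47), for Mef2c 0.46 (-0.14 to 1.06) and 0.40 (-0.22 to 1.01), and for Maf 0.41 (-0.07 to 0.89) and 0.10 (-0.39 to 0.60). Without control microglia 6 hr replicate 2, the 6 hr term of Mef2c was 0.25 (adjusted p = 0.879). Leaving out 1 library at a time gave 0.021 to 0.17 for the 24 hr term of Maf.

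WM repopulating cells and control microglia were then set side by side at the same time after LPS. At 6 hr 0 of 9 members were called by limma, against 0.323% of all genes (0.213% higher and 0.11% lower), and Sall3 alone had an unadjusted p under 0.05 (difference 0.39, adjusted p = 0.519). With 1 library left out at a time the Sall3 difference ran from 0.25 to 0.53. At 24 hr Cebpb was the 1 member called, against 3.97% of all genes (1.68% higher and 2.29% lower). Its difference was 1.08 (SE 0.30, 95% confidence interval 0.46 to 1.69, adjusted p = 0.0421), though 1 WM library at 299 FPKM lay below the controls at 330.3 and 331 FPKM. Intervals at 24 hr held 0 for Sall1 (-0.56 to 0.11), Sall3 (-0.08 to 0.72), Mef2a (-0.07 to 0.45), Mef2c (-0.18 to 0.65), Runx1 (-0.01 to 0.68) and Spi1 (-0.13 to 0.74). The median differences of the members were 0.22 at 6 hr and 0.31 at 24 hr, beside 0.0022 and 0.0248 over all genes.

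The 24 hr call of Cebpb changed with the libraries and settings used. It was made in 16 of 32 alternatives, with adjusted p from 0.0153 to 0.184. Without control microglia 24 hr replicate 4, the library at 84.8 FPKM, the difference was 0.67 (adjusted p = 0.142). It was also lost without control microglia 24 hr replicate 1 (0.99), without WM repopulating 24 hr replicate 2 (0.90), 3 (1.04) or 4 (1.13), and, at an unchanged 1.08, without WM repopulating 0 hr replicate 2, 3 or 4 or 6 hr replicate 3 or 4. Cebpa (0.76, SE 0.22, 95% confidence interval 0.30 to 1.22, adjusted p = 0.0525) and Maf (-0.50, SE 0.16, adjusted p = 0.0819) missed the threshold at 24 hr, and were called in 5 and 1 of 32 alternatives. Without the libraries that stood apart, Cebpa (0.70, adjusted p = 0.0463) and Runx1 (0.40, adjusted p = 0.0386) were called instead of Cebpb (0.67, adjusted p = 0.113). Summed neutrophil markers at 24 hr were 6406.3 to 15337.5 FPKM in control microglia and 3191.6 to 7213.1 FPKM in WM repopulating cells. Sums that did not overlap between the groups at 24 hr were those of border-associated macrophages (WM to control ratio 0.473), choroid plexus (0.587), neuroblasts and neural stem cells (0.342) and oligodendrocyte precursors (3.59, at most 1.27 FPKM in any library of either group). The part of these cells was not tested.

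Relatives of the 9 genes numbered 21, of which 15 were tested in the LPS table. In the SVZ 11 were tested, with 0 called after 14 day PLX3397 and 1 lower after 5 day recovery, both against control (median difference after recovery -0.096). Of all genes 1.26% and 1.27% were called in these comparisons. At rest and at 6 hr 0 of the 15 were called between the 2 kinds of cell. By 24 hr the small MAF factors Mafk (1.16, SE 0.21, adjusted p = 0.00168) and Mafg (0.82, SE 0.16, adjusted p = 0.00419) were higher in WM repopulating cells, opposite in sign to the difference of Maf. The largest LPS response was that of Spic, the PU.1 relative of heme-recycling macrophages, which rose at 6 hr by 4.45 in control microglia (adjusted p = 1.13e-08) and 4.56 in WM repopulating cells (adjusted p = 5.66e-09). Cebpd rose like Cebpb, by 0.84 and 0.90 at 6 hr, whereas Cebpg (-1.07 and -0.97) and Sall2 (-0.89 and -0.64) fell. In all, 4 rose and 3 fell at 6 hr in control microglia, 7 of 15 beside 42.5% of all genes, the others being Mafk (0.57) and Mafg (0.48) among those that rose and Ddit3 (-0.62), a stress-induced C/EBP relative, among those that fell. In WM repopulating cells 4 rose and 2 fell, 6 of 15 beside 38.8% of all genes, the others being Mafg (0.56) and Runx3 (0.72), a paralog of Runx1. At 24 hr Spic (3.07) and Maff (0.94) rose and Mef2d (-0.85), a relative of the MEF2 members, fell in control microglia, while Spic (2.22), Maff (1.49) and Mafg (0.82) rose and 0 fell in WM repopulating cells. These were 3 of 15 in each kind of cell, beside 21.3% and 18.8% of all genes.

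Of the 40 other myeloid transcription factors, 39 were tested in the sorted cells. In the comparison of the 2 kinds of cell 0 were called at 0 hr and 6 hr, and 3 of 39 were higher in WM repopulating cells at 24 hr, beside 1.68% of all genes, namely Tgif1 (0.96, adjusted p = 0.00108), Id2 (0.87, adjusted p = 0.0236) and Klf6 (0.70). After LPS 9 rose and 14 fell at 6 hr in control microglia, and 8 rose and 19 fell in WM repopulating cells. All genes were called at 42.5% and 38.8% in these comparisons, and at 21.3% and 18.8% at 24 hr. Id2 (2.0 and 1.39), Tfec (3.15 and 3.40) and Stat3 (1.52 and 1.41) were among those that rose in both, with Nfil3 (2.95) in control microglia, and Batf3 (-1.44) was among those that fell in WM repopulating cells. Irf8 was lower at 6 hr, like Sall1, with differences of -0.92 and -0.78, as was Lmo2, with -1.94 and -1.35. At 24 hr 5 rose and 9 fell in control microglia, and 6 rose and 6 fell in WM repopulating cells, with Nr1h3, a lipid-sensing nuclear receptor, higher in both (3.84 and 2.90), and with Ets1 (-0.88), Lmo2 (-1.35) and Irf4 (-0.87) among those lower in control microglia.

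The 14 homeostatic microglial genes, several of them targets of Sall1 and PU.1, fell after LPS almost without exception. In control microglia 13 fell at 6 hr and 13 at 24 hr, with median differences of -1.62 and -1.0, and in WM repopulating cells 13 and 14 fell, with medians of -1.42 and -0.95. P2ry12, a purinergic receptor used as a microglial marker, fell at 6 hr, with differences of -3.45 and -2.71. Comparing the 2 kinds of cell, 0 were called at 0 hr and 6 hr, and at 24 hr 1 was lower in WM repopulating cells, Fcrls (-1.13, SE 0.22, adjusted p = 0.0044). In GLOBAL cells 0 of the 17 relatives, 0 of the 39 other factors and 0 of the 14 homeostatic genes tested by limma were called.

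Genes with the level pattern closest to each factor were sought over the 24 sorted libraries of the LPS table by Pearson correlation, as a description, since these libraries share the LPS times and the 2 kinds of cell. Sall1 ran closest to Camk1 (r = 0.976), Rhobtb1 (r = 0.972) and Gm10790 (r = 0.971). Mef2c ran closest to Gm19363 (r = 0.978), Lmo2 (r = 0.963) and Rasgrp3 (r = 0.948), and Mef2a to Rnf13 (r = 0.956), Entpd1 (r = 0.942) and Papss1 (r = 0.932). For Runx1 the closest were Eif4g2 (r = 0.955), Etv6 (r = 0.952) and Larp1 (r = 0.947). For Maf they were Gprasp1 (r = 0.913), Txnip (r = 0.888) and Sema4b (r = 0.886), and for Spi1 Arf1 (r = 0.907), Bcl2l1 (r = 0.904) and Sf3b4 (r = 0.90). Cebpa ran closest to Jund (r = 0.932), Rhob (r = 0.907) and Plekho1 (r = 0.891), while Cebpb ran closest to Slc7a6 (r = 0.909) and Nuak2 (r = 0.903), and none of these genes was shared by the 2 C/EBP members. For Sall3 the closest were Srsf9 (r = 0.893), Kdsr (r = 0.863) and Snord14e (r = 0.857), each the lowest of the 9 at its rank.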

How the data were processed

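The deposited tables hold FPKM values that the authors made from paired-end Smart-seq2 libraries with STAR, featureCounts, edgeR and limma on mm10, per the labels' processing notes, and counting by strand is not given in the sources used here. The extract protocol in the labels describes another preparation, and the study's methods were followed. The SVZ, LPS and GLOBAL tables were normalized separately and each was analysed alone, with all of its groups in 1 fit. Tests used limma 3.58.1 in R 4.3.3 (trend on) on log2(FPKM + 1) over all genes at 1 FPKM or more in at least 3 libraries (14151, 12684 and 16651 genes), with Benjamini-Hochberg adjustment. Reads were recovered from the steps of the FPKM values, which came out whole within 0.01 reads for 100% of genes. They are known per gene only up to a factor shared by all libraries, and no count test was run. On simulated data with 200 genes changed by a log2 difference of 2, the same code recovered 198 (SVZ, 14003 genes, 14 day PLX3397 against control), 192 (LPS, 12349 genes, WM repopulating against control at 0 hr) and 189 (GLOBAL, 15970 genes).

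The 9 members, their lists and the tests were chosen with earlier results of these data known. All members are described. Of their relatives called genes were named, of other myeloid factors at most 4 called per comparison by smallest adjusted p, of homeostatic genes at most 4, and for each member the 3 genes of highest correlation. Irf8 and Lmo2 at 6 hr were named after their values were seen. Some genes that these rules would name are not reported here. For the SVZ, 25 symbols that a spreadsheet had turned into dates were replaced by their gene symbols. No per-sample column was left unused, and no pair of libraries was identical. Promoter windows and coordinates came from RefSeq (GRCm38.p6). Samples were grouped by the labels. Alternatives were another pseudocount, no expression limit, no trend, quantile and median scaling, a replicate block, only the groups compared, and leaving out each library in turn. Leaving out the libraries that stood apart was chosen after seeing the data. Figures were drawn with matplotlib 3.10.9 in Python 3.11.15.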

Additional observations from a re-analysis of the deposited data

Results flagged for a closer look

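In 5 of 81 sets of 4 or 5 libraries (each factor in each group of that size), 1 library lay far from the rest of its group, where chance alone gives about 1 in 20. Mef2a in SVZ 5 day recovery replicate 3 read 45.8 FPKM, against 37.8 to 39.2 FPKM in the other 4 libraries. Spi1 in control microglia 24 hr replicate 4 read 218 FPKM, against 554 to 597 FPKM, and that library also had the lowest correlation with its group. Runx1 in control microglia 6 hr replicate 2 read 105 FPKM, against 50.4 to 60.1 FPKM, and this library too stood apart over all genes. Maf in WM repopulating 0 hr replicate 2 read 37.3 FPKM, against 32.5 to 33.1 FPKM. Cebpb in WM repopulating 6 hr replicate 1 read 714 FPKM, against 926 to 933 FPKM, in the library with the highest summed neutrophil markers of its group (10258.6 FPKM). The part of these features in the values was not tested.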

How the results depend on the processing

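Of 3221 values of single factors under an alternative, 3091 kept their direction and side of the threshold, 43 lost the call, 22 gained it and 65 changed sign, none of them called. Of 374 counts of called members, 347 stayed within 1.5 times. No scaling moved the median of all genes by more than 0.048 (quantile normalization, control microglia at 24 hr against 0 hr). Settings outside libraries moved these counts: without an expression limit 2 members (Spi1 and Maf) were called in both SVZ groups against control and 0 at 24 hr in WM repopulating cells against controls, where a pseudocount of 0.1, no trend, quantile normalization and only the groups compared also gave 0. With only the groups compared 2 (Maf and Cebpb) were called at 0 hr and 0 between the treated SVZ groups, where Spi1 was then not tested. Without the libraries that stood apart 2 were called at 0 hr (Maf, Cebpb) and 2 at 24 hr (Runx1, Cebpa). Other causes were not tested.

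Whether the replicate numbers pair the libraries is not known. After group means were taken out, 5 of 15 same-number pairs correlated above 0.1 in the SVZ, 7 of 55 in the LPS table and 2 of 3 in the GLOBAL table. Their mean r was 0.070, -0.00037 and 0.098, against -0.018, 0.00023 and -0.033 for other pairs. With the replicate block 55 genes against 0 were called in GLOBAL cells over all 16651, 2 members (Spi1, Cebpa) were called in SVZ recovery against control, and Spi1 changed sign at 0 hr (0.065) and in GLOBAL cells (0.11), with Runx1 in GLOBAL cells (0.040).

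Leaving out 1 library gave 1 to 2 called members in SVZ recovery against control (2 without SVZ control replicate 4), 1 to 2 at 0 hr (2 without control microglia 6 hr replicate 3) and 0 to 2 at 24 hr in WM repopulating cells against control. Sign changes came from these ranges. SVZ 14 day PLX3397 against control: Sall3 -0.10 to 0.023, Mef2a -0.062 to 0.074, Mef2c -0.17 to 0.13, Cebpb -0.30 to 0.026. Recovery against control: Sall3 -0.10 to 0.022, Mef2c -0.036 to 0.18, Cebpb -0.21 to 0.043. Recovery against 14 day PLX3397: Sall3 -0.057 to 0.049, Mef2c -0.054 to 0.26, Cebpb -0.081 to 0.21. WM repopulating against control: Sall3 -0.010 to 0.20 and Spi1 -0.055 to 0.035 at 0 hr, Spi1 -0.040 to 0.44 at 24 hr. WM repopulating 24 hr against 0 hr: Sall3 -0.012 to 0.092. Difference of responses: Runx1 -0.26 to 0.0049 and Cebpa -0.30 to 0.035 at 6 hr, Sall1 -0.11 to 0.023 and Spi1 -0.032 to 0.45 at 24 hr. GLOBAL: Spi1 -0.22 to 0.11, Runx1 -0.10 to 0.040, Maf -0.24 to 0.074, Cebpb -0.12 to 0.36.

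Under quantile normalization Sall3 (0.041) and Cebpb (0.025) changed sign in SVZ recovery against control, Sall3 (0.044) in recovery against 14 day PLX3397 (0.0014 under median scaling), and Sall1 (-0.0098) and Cebpb (-0.016) in GLOBAL cells. Without SVZ recovery replicates 4 and 5, so did Sall3 against control (0.030), and, with or without control replicate 1 as well, Sall3 (0.069) and Cebpb (-0.063) against PLX3397. Without all libraries that stood apart, so did Mef2a (-0.041) and Mef2c (-0.0076) under PLX3397 against control, Spi1 at 24 hr (-0.040), Runx1 (0.0049) and Spi1 (-0.032) in the responses, and Spi1 (0.11) and Runx1 (0.040) in GLOBAL cells. Maf and Runx1 in the SVZ rest on at most 29 reads per library, which limits their precision.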
